A study of Mus musculus with 6 samples.

Results

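The genes described are the integrins and laminins, 36 rows of the 55536 in a table of liver RNA counts, chosen by gene name: 26 integrin subunits and 10 laminin chains. The livers came from male mice of the C57BL/6 strain, 3 of genotype Sirt5+/+ and 3 of genotype Sirt5-/-, which lack SIRT5, a deacylase of mitochondria. Every animal had received 50 µg of a plasmid in which the CMV promoter drives myc-tagged YAP5SA, a YAP protein that its inhibitory kinases no longer hold back, with 10 µg of a transposase plasmid. The plasmids were given at 4 weeks of age by hydrodynamic injection, which carries DNA mainly into hepatocytes, and tissue was taken after 20 days. Livers without YAP5SA were not analysed here, so the values compare 2 genotypes that both carry it. The labels give neither the share of each piece that was nodule tissue nor whether each liver is a separate animal, so the p-values cover the spread of these 6 samples, which may be technical.

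Integrins are receptors made of 1 alpha and 1 beta subunit that span the cell membrane and tie the actin skeleton to the matrix or to other cells. Laminins are trimers of an alpha, a beta and a gamma chain that form the sheet-like core of basement membranes. Epithelial cells hold on to laminin through alpha 3, alpha 6 and beta 4 integrins, mesenchymal cells bind collagen and other matrix proteins through alpha 1, alpha 8 or alpha 11, and leukocytes use the beta 2 and beta 7 families to leave vessels. In healthy liver the hepatocyte plates face a sparse matrix with little laminin, while bile ducts and larger vessels have a true basement membrane.

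A pair of sequences is shown first because the leukocyte result for Itgam depends on it. Itgam encodes alpha M (CD11b) of macrophages and neutrophils (chromosome 7, 128062640 to 128118491, plus strand, GRCm38). A separate entry of the same annotation, Gm49368, runs over it on the same strand from 128062683 to 128128160. The transcripts Itgam-203 and Gm49368-201 have 30 exons each, of which 28 have equal coordinates, and they share 3450 bases before they part at the last exon. The last exon of Itgam-203 lies at 128117306 to 128118490 and that of Gm49368-201 at 128126808 to 128128160. The 60 bases around that point are given 5′ to 3′ from the GENCODE M21 transcripts, with the 30 shared bases of the second last exon in capitals and the first 30 of each last exon in lower case.
Itgam-203: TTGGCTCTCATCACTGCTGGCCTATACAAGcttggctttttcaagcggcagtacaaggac
Gm49368-201: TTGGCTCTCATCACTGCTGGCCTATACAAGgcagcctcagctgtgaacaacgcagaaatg
Of the 31-base words of Itgam-203, 74.0% occur in Gm49368-201. Reads from the shared exons could therefore be counted under either entry.

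Promoters are shown for Itgb1, the shared beta partner of the epithelial and stromal integrins, and for Itgam, whose window also holds the start of Gm49368. RefSeq promoters of GRCm38.p6, 250 bases before to 50 after a start site, were matched for 23 of the 36 genes with 26 windows. Each is printed on its own strand, 5′ to 3′, with matches in capitals to GGAATG, a core motif of the TEAD factors that YAP binds, or to GAGGAA, a core of the myeloid factor PU.1, on either strand (reverse complements CATTCC and TTCCTC).
Itgb1 (chr8:128685404-128685703, plus strand): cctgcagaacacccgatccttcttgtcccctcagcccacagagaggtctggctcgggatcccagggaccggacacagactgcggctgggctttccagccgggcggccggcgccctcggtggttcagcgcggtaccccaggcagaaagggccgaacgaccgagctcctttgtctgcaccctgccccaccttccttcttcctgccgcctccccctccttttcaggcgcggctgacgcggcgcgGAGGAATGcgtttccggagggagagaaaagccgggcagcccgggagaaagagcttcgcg
Itgam (chr7:128062390-128062689, plus strand): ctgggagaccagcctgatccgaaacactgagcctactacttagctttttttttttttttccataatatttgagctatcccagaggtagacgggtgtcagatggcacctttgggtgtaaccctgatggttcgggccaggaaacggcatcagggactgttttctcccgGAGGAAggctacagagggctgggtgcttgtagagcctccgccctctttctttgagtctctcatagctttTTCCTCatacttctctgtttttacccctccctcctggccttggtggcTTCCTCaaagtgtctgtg
In Itgb1 the 2 motifs overlap within one run of capitals, and in Itgam GAGGAA or its reverse complement occurs 3 times. GGAATG was found in 3 of the 26 windows (11.5%), those of Itga10, Itgb1 and Lamb3, against 14.7% of all 32851 promoters. GAGGAA was found in 14 of 26 windows (53.8%), against 28.3% of all promoters, and the windows of Lamb3 overlap each other. Of leukocyte integrins, Itgam and Itgb7 had a match, while the windows of Itga4 and Itgax held none. The other matches belonged to Itga2b, Itga3, Itga5, Itga11, Itgav, Itgb1, Itgb6, Lama2, Lama5, Lamb1, Lamb2 and Lamb3. A match in these letters describes the sequence and shows no binding.

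Library totals ran from 19307808 to 24330797 estimated counts, of which these 36 genes took 0.0167 to 0.0494% in Sirt5+/+ and 0.0926 to 0.216% in Sirt5-/-. Sirt5 had 352, 441 and 96 counts in Sirt5+/+ and 14, 45 and 18 in Sirt5-/-, and so matched the labels. Mitochondrially encoded genes took 46.4% of counts in Sirt5+/+ replicate 3 and 40.8% in Sirt5-/- replicate 1, against 6.58 to 21.5% elsewhere, and the TMM factor that scales replicate 3 of Sirt5+/+ was 0.396 against 0.857 to 1.68. A floor of 3 counts corresponds to 0.0827 to 0.393 CPM (counts scaled to library size with TMM). Hepatocyte markers were present in every library and their summed level was 77293 to 101661 CPM in Sirt5+/+ and 17412 to 34567 CPM in Sirt5-/- (6 of 8 lower, against 17.1% of all genes). In whole tissue, more cells of a type and more RNA per cell cannot be told apart.

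In livers without Sirt5, 4 of 6 epithelial and 5 of 8 leukocyte integrins, all 4 broadly expressed integrins and 5 of 10 laminin chains rose. Of the stromal integrins 1 rose and 1 fell, and of the 2 platelet integrins 1 fell. Of the 36 genes 34 passed the filter on low counts and 19 rose (edgeR quasi-likelihood test, Benjamini-Hochberg adjusted p under 0.05), against 17.4% of all 14799 genes tested. Itga7 and Itgb3 were lower, against 17.1% of all genes. In 22 of the 34 every Sirt5-/- library lay above every Sirt5+/+ library, against 25.8% of all genes, and in 3 every one lay below, against 24% of all. The median log2 fold change, Sirt5-/- over Sirt5+/+, was 1.31 for the 34 genes and -0.077 for all genes. Scaling by library totals instead moved these medians to 1.99 and 0.60. By class the medians were 2.44 for epithelial, 1.84 for leukocyte, 0.91 for broadly expressed, 0.12 for stromal and -1.26 for platelet integrins, and 0.40, 1.36 and 0.48 for laminin alpha, beta and gamma chains. The difference between classes was not tested. The genes not tested for low counts were Itga11 (0 to 27 counts) and Itgad (0 to 7 counts).

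**Figure D1:**
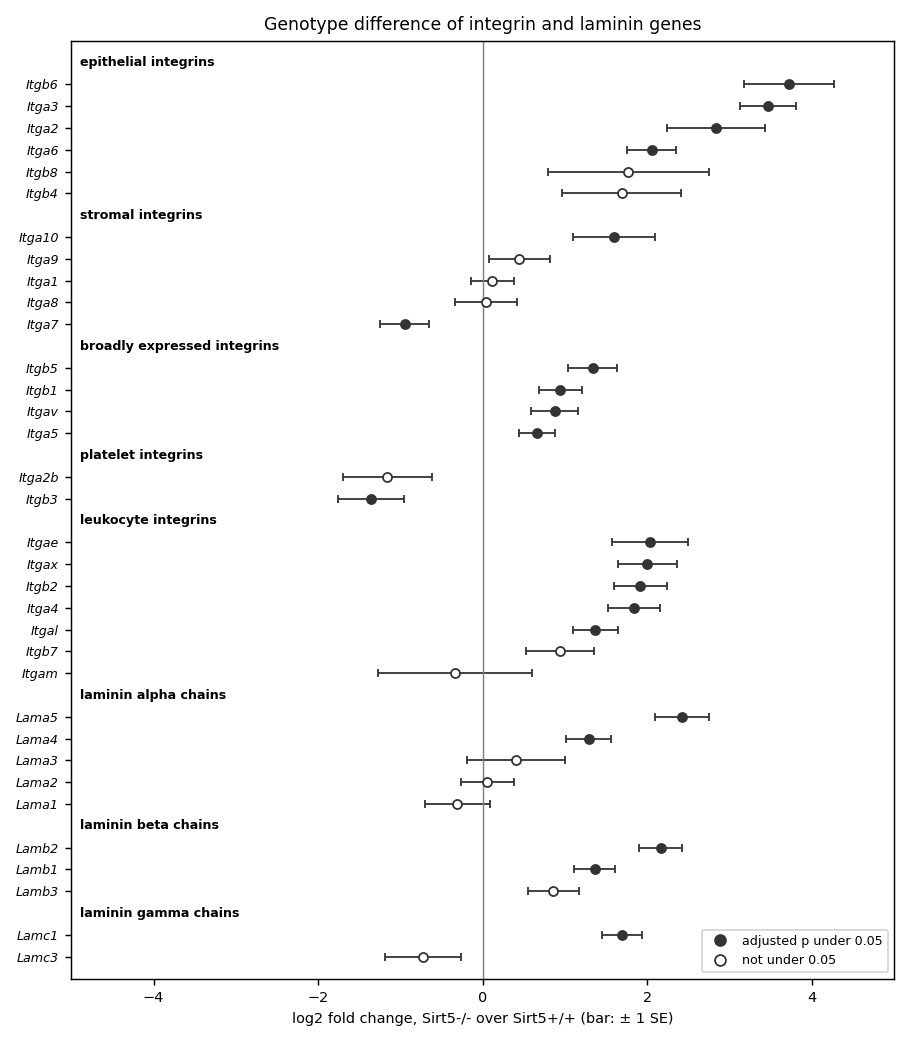
Log2 fold change of 34 integrin and laminin genes, Sirt5-/- over Sirt5+/+, with 1 SE, grouped by class; filled points passed an adjusted p of 0.05 in edgeR. Itgb6 and Itga3 lie farthest to the right (3.72 and 3.46), and the platelet integrins Itga2b and Itgb3 lie below 0.

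Epithelial integrins had the highest class median. Of the 6, Itga2, Itga3, Itga6 and Itgb6 rose, and Itgb4 and Itgb8 did not pass. Itga3, whose product pairs with beta 1 as a laminin receptor (chromosome 11, 95044474 to 95076801, minus strand), had levels, replicates 1 to 3, of 23.4, 17.7 and 33.9 CPM in Sirt5+/+ against 283, 241 and 301 CPM in Sirt5-/-. The groups did not overlap, and Itga3 was 11.0-fold higher, a log2 change of 3.46 ± 0.34 (SE; edgeR adjusted p = 0.00146). It kept its call in all 17 alternative settings, with log2 changes of 3.25 to 4.26.

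Itgb6 encodes the epithelial beta subunit that pairs with alpha V to release active TGF-beta from its latent form. It was near the floor in Sirt5+/+, with 4, 13 and 4 counts, and had 133, 136 and 130 counts in Sirt5-/-. The levels of Itgb6 were 0.393 ± 0.178 and 5.03 ± 2.36 CPM (SD, n = 3), a log2 change of 3.72 ± 0.55 (SE; edgeR adjusted p = 0.00259). Sirt5-/- replicate 1 was the highest of the 6, at 7.76 CPM. The TPM of Itgb6, the authors' per-length value, were 7.42, 1.11 and 1.10 in Sirt5-/- replicates 1 to 3, so the first of these stood apart much more in TPM than in counts.

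Itga6, the alpha partner of beta 4 in hemidesmosomes and of beta 1 elsewhere, had 2.28, 3.61 and 4.19 CPM in Sirt5+/+ and 12.9, 12.6 and 15.7 CPM in Sirt5-/-. That is a 4.14-fold difference with no overlap (edgeR adjusted p = 0.00244). Itga2, the alpha 2 collagen and laminin receptor subunit, had 3, 13 and 5 counts against 62, 104 and 71, a log2 change of 2.83 ± 0.60 (SE; edgeR adjusted p = 0.00815). Both genes held their call in every alternative that tested them.

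Itgb4, the hemidesmosomal beta subunit, had 19, 36 and 0 counts in Sirt5+/+ and 43, 100 and 94 in Sirt5-/-. The groups did not overlap in CPM, yet the difference did not pass (log2 change 1.69 ± 0.72, SE; edgeR adjusted p = 0.105). Itgb4 passed without Sirt5+/+ replicate 3, the library with 0 counts (0.020), and with DESeq2 (0.0244). Itgb8, another alpha V partner that presents latent TGF-beta, gave 1.77 ± 0.98 (SE; edgeR adjusted p = 0.197) from 0, 12 and 9 counts against 22, 52 and 70, and also passed without that library.

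Of 8 cholangiocyte markers 7 were tested and 3 rose, against 17.4% of all genes. The 8 had a summed level of 77.6 to 387 CPM in Sirt5+/+ against 742 to 821 CPM in Sirt5-/-. Spp1, which is also listed among the integrin ligands and did not pass (edgeR adjusted p = 0.0621), made up 67.8 to 90.8% of that sum. Without Spp1, a choice made after seeing the data, the sum was 19.3 to 35.6 against 204 to 254 CPM. Sctr of that list had 0 counts in some libraries. Counts of Itga3 relative to that sum were 0.0877 to 0.302 in Sirt5+/+ and 0.293 to 0.382 in Sirt5-/-, which overlap. Without Spp1 in the sum the ratio of Itga3 was 0.830 to 1.21 against 1.18 to 1.38, which also overlap. For Itgb6 the ratio was 0.00136 to 0.00335 against 0.00455 to 0.0105, without overlap, but it overlapped once Spp1 was left out of the sum (0.00985 to 0.0217 against 0.0141 to 0.0377). The part of the cholangiocyte markers in the integrin result was not tested.

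**Figure D2:**
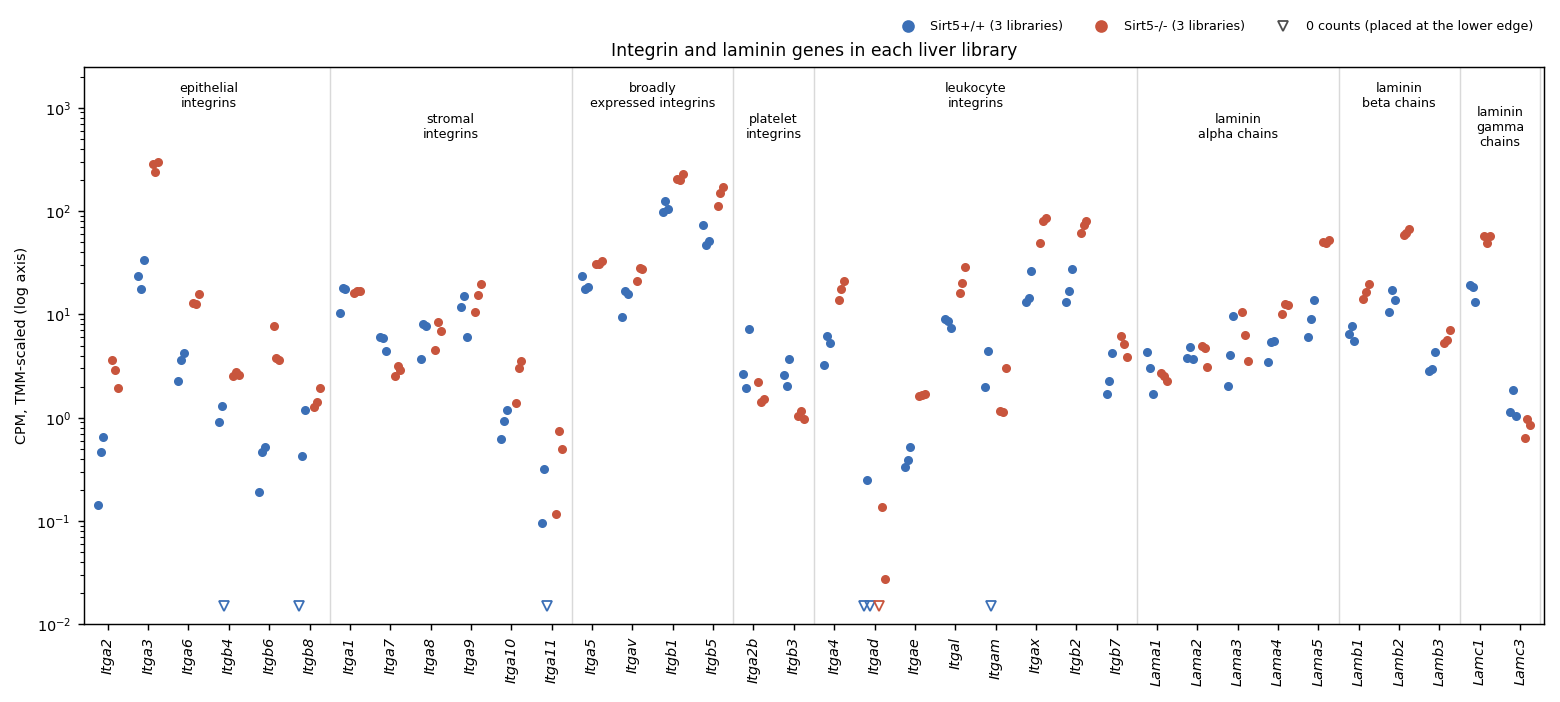
TMM-scaled CPM of all 36 genes in each of the 6 libraries on a log axis, with 0 counts drawn as open triangles at the lower edge. Itga3 moves from 17.7 to 33.9 CPM in Sirt5+/+ up to 241 to 301 CPM in Sirt5-/-, while Itga1 and Itga8 overlap between genotypes.

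The 4 broadly expressed integrins rose, with log2 changes of 0.66 to 1.33. Itgb1, the beta subunit shared by most matrix receptors, measured 99.0, 126 and 105 CPM in Sirt5+/+ and 204, 200 and 231 CPM in Sirt5-/-, a 1.92-fold difference (edgeR adjusted p = 0.0236). Itgb5, an alpha V partner that binds vitronectin, rose from 57.3 ± 13.6 to 145 ± 29.9 CPM (SD, n = 3; edgeR adjusted p = 0.0100). Itgav, the alpha V chain itself, rose by 0.87 ± 0.28 (log2, SE; edgeR adjusted p = 0.0433) and Itga5, the fibronectin receptor chain, by 0.66 ± 0.22 (edgeR adjusted p = 0.0467). In all 4 genes the genotypes did not overlap.

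These calls were close to the threshold. Itgb1 missed it with library totals (edgeR adjusted p = 0.105) and without Sirt5-/- replicate 1, 2 or 3 (0.0640, 0.0958 and 0.100). With the replicate number as a block Itgb1 missed it too. Itgav missed it with library totals (0.106) and without any one library except Sirt5+/+ replicate 3 (0.0591 to 0.157), and Itgb5 without Sirt5-/- replicate 2 (0.0511) or 3 (0.0523). Itga5 missed it in 9 of the 17 alternatives, among them DESeq2 size factors (0.0546), library totals (0.194), no filter (0.0817) and the leaving out of Sirt5+/+ replicate 2 or of any Sirt5-/- library (0.118 to 0.159).

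Within a library the ratio of counts does not depend on scaling. Counts of Itga3 per count of Itgb1 were 0.236, 0.141 and 0.323 in Sirt5+/+ and 1.21 to 1.39 in Sirt5-/-, so every Sirt5-/- library was higher. For Itga5 the same ratio was 0.138 to 0.240 against 0.142 to 0.154, and the groups overlapped. Counts of Itga1 per Itgb1 were lower in every Sirt5-/- library, 0.0730 to 0.0851 against 0.105 to 0.168. Itgb6 per Itgav was 0.0203 to 0.0336 against 0.129 to 0.370, again without overlap. With 3 libraries against 3, an exact permutation test of such a ratio cannot go below p = 0.1, and none was run.

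Per kilobase of the deposited gene length, Itga3 made up 14.4 to 23.0% of the summed counts of all alpha subunits in Sirt5+/+ and 51.0 to 61.7% in Sirt5-/-. On the TPM scale those shares of Itga3 were 15.0 to 21.8% and 49.7 to 60.8%. Itga3 was the most abundant alpha subunit per length in every Sirt5-/- library on both scales, with Itgam entering as its own entry alone. Among beta subunits, Itgb1 and Itgb5 were the leading pair in both genotypes, with Itgb1 at 48.2 to 60.4% and 41.4 to 47.4% of summed counts per kilobase. On the TPM scale the shares of Itgb1 overlapped, at 34.12 to 54.44% and 32.25 to 34.86%. There Itgb5 lay above Itgb1 in every library except Sirt5+/+ replicate 2.

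Stromal integrins showed no common direction. Itga1, a collagen receptor subunit of stellate and sinusoidal cells, measured 10.3, 18.1 and 17.7 CPM in Sirt5+/+ and 16.0, 17.0 and 16.9 CPM in Sirt5-/-. The log2 change of Itga1 was 0.12 with a 95% interval of -0.49 to 0.72. Itga8, a marker of stellate cells, gave 0.039 (95% interval -0.83 to 0.91), and Itga9, which binds tenascin and osteopontin, gave 0.44 (95% interval -0.41 to 1.29). Both overlapped between genotypes.

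Itga7, the laminin receptor subunit of muscle and pericyte-like cells, was the one stromal gene that fell, from 6.07, 5.89 and 4.45 to 2.51, 3.14 and 2.87 CPM. The groups did not overlap (log2 change -0.95 ± 0.30, SE; edgeR adjusted p = 0.0383), but the call was lost with library totals (-0.34, adjusted p = 0.802), upper-quartile factors (0.0756) and no filter (0.114), and on leaving out any one library except Sirt5+/+ replicate 3 (0.0766 to 0.135). Itga10, a collagen receptor subunit of cartilage, rose from 13, 26 and 9 counts to 24, 110 and 127 (log2 change 1.59 ± 0.50, SE; edgeR adjusted p = 0.0385). That call was lost without Sirt5+/+ replicate 1 or 2, or Sirt5-/- replicate 2 or 3 (0.0977 to 0.172). With the replicate number as a block the calls of Itga7 and Itga10 were both lost. Of the 31-base words of Itga10, 31.8% occur in the same-strand entry Gm42957, which had at most 1 count in any library. Smooth muscle and nerve markers, measured beside Itga7, summed to 1.38 to 40.8 CPM in Sirt5+/+ and 6.89 to 12.8 CPM in Sirt5-/-, with Sox10 at 0 in some libraries, and the 3 of 5 that were tested did not pass.

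Of 9 stellate cell and fibroblast markers 5 rose, the collagens Col1a1, Col1a2 and Col3a1, and Lum and Pdgfrb, against 17.4% of all genes. The other 4 did not pass, and of these Lrat and Des, markers of stellate cells, had log2 changes below 0. All 9 were detected in every library, and Col3a1 made up 33.6 to 54.0% of their sum. That sum was 413 to 695 CPM in Sirt5+/+ and 2194 to 2402 CPM in Sirt5-/-. Relative to that sum, counts of Itga1 were 0.0250 to 0.0304 in Sirt5+/+ and 0.00700 to 0.00769 in Sirt5-/-. The level of Itga1 overlapped between genotypes while the marker sum did not.

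Platelet integrins had the one negative class median. Itgb3, the beta chain of the fibrinogen receptor of platelets, which also pairs with alpha V on other cells, had 2.61, 2.04 and 3.67 CPM in Sirt5+/+ and 1.05, 1.16 and 0.966 CPM in Sirt5-/- (log2 change -1.36 ± 0.40, SE; edgeR adjusted p = 0.0309). Itga2b, its megakaryocyte-restricted partner, gave -1.16 ± 0.54 (SE; edgeR adjusted p = 0.132), with Sirt5+/+ replicate 3 highest at 7.21 CPM and the groups overlapping. The call of Itgb3 was lost with library totals (log2 change -0.60, adjusted p = 0.671), upper-quartile factors (0.0578), no filter (0.0769) and the replicate number as a block. It was also lost without Sirt5+/+ replicate 1 (0.0622) or any Sirt5-/- library (0.0814 to 0.127). Leaving out the libraries richest in mitochondrial reads, 1 per genotype, lost it as well (-1.07, 0.0673). Of 6 platelet and megakaryocyte markers only Pf4 and Ppbp were abundant enough to be tested, of which Pf4 rose and Ppbp did not pass (edgeR adjusted p = 0.202). The 6 summed to 3.04 to 8.52 CPM in Sirt5+/+ and 29.5 to 51.4 CPM in Sirt5-/-, but Pf4 made up 66.2 to 97.3% of the sum, and the other 5 overlapped, at 0.607 to 2.88 against 1.41 to 2.33 CPM. Gp1bb, Gp1ba and Treml1 of that list had 0 counts in some libraries.

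Leukocyte integrins rose in 5 of 8 genes, Itga4, Itgae, Itgal, Itgax and Itgb2. Itgb2, the common beta chain of the leukocyte family (CD18), measured 13.1, 16.8 and 27.5 CPM in Sirt5+/+ and 61.1, 74.2 and 80.1 CPM in Sirt5-/-, a 3.77-fold difference (edgeR adjusted p = 0.00370). Itgax (CD11c, of macrophages and dendritic cells; chromosome 7, 128129547 to 128150657, plus strand) measured 13.3, 14.3 and 26.6 CPM against 49.2, 80.2 and 85.8, a 4.00-fold difference (edgeR adjusted p = 0.00471). In both genes Sirt5+/+ replicate 3 was the highest of its group and Sirt5-/- replicate 1 the lowest, with a gap between the genotypes.

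Itgal, the alpha L chain of LFA-1 on lymphocytes and myeloid cells, rose 2.58-fold, from 9.06, 8.68 and 7.34 to 16.3, 20.0 and 28.5 CPM (edgeR adjusted p = 0.00655). Itga4, the alpha chain of the VCAM-1 receptor VLA-4, rose 3.57-fold, to 13.8, 17.7 and 21.1 CPM from 3.23, 6.25 and 5.24 (edgeR adjusted p = 0.00393). Itgae, the CD103 chain of tissue-resident T cells and some dendritic cells, had 7, 11 and 4 counts against 28, 60 and 61 (log2 change 2.03 ± 0.46, SE; edgeR adjusted p = 0.0114). On leaving out Sirt5-/- replicate 2 (0.0671) or 3 (0.0629), or with the replicate number as a block, Itgae lost that call. Its partner Itgb7 did not pass (log2 change 0.94 ± 0.41, SE; edgeR adjusted p = 0.112), with 1.71 to 4.19 CPM in Sirt5+/+ and 3.87 to 6.18 CPM in Sirt5-/-. Itgb7 passed without Sirt5+/+ replicate 3, with limma-voom and without the libraries richest in mitochondrial reads. The TPM of Itgb7 were 1.21, 1.48 and 2.69 in Sirt5+/+ and 6.38, 9.64 and 9.25 in Sirt5-/-, which did not overlap, unlike its CPM.

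The entry named Itgam did not pass. Its counts were 42, 124 and 0 in Sirt5+/+ and 20, 41 and 110 in Sirt5-/-, which overlapped, and its log2 change was -0.34 ± 0.93 (SE; 95% interval -2.47 to 1.80; edgeR adjusted p = 0.809). Gm49368, whose transcript shares 28 exons with that of Itgam, had 45, 56 and 75 counts in Sirt5+/+ and 868, 2028 and 2401 in Sirt5-/- (log2 change 3.72 ± 0.62, SE; edgeR adjusted p = 0.00364). Of the counts of both entries, 51.9, 31.1 and 100% stood under Gm49368 in Sirt5+/+, and 97.7, 98.0 and 95.6% in Sirt5-/-. How the estimated counts of shared exons were split between the entries was not tested.

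With both entries summed, a choice made after seeing the data, the locus of Itgam measured 4.13, 6.43 and 9.83 CPM in Sirt5+/+ and 51.8, 57.0 and 69.3 CPM in Sirt5-/-. The sum rose by 3.15 ± 0.35 on the log2 scale (SE; edgeR adjusted p = 0.00163), and it stayed past the threshold in all 16 alternatives run on it (2.91 to 3.97). Counts of the sum per count of Itgb2 were 0.314, 0.383 and 0.357 in Sirt5+/+ and 0.849, 0.769 and 0.866 in Sirt5-/-, so the locus was higher relative to its beta partner in every Sirt5-/- library. Itgax per Itgb2 was 0.853 to 1.01 against 0.806 to 1.08 and overlapped. The row named Itgam alone gives 0.152, 0.264 and 0 against 0.0191, 0.0152 and 0.0379.

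**Figure D3:**
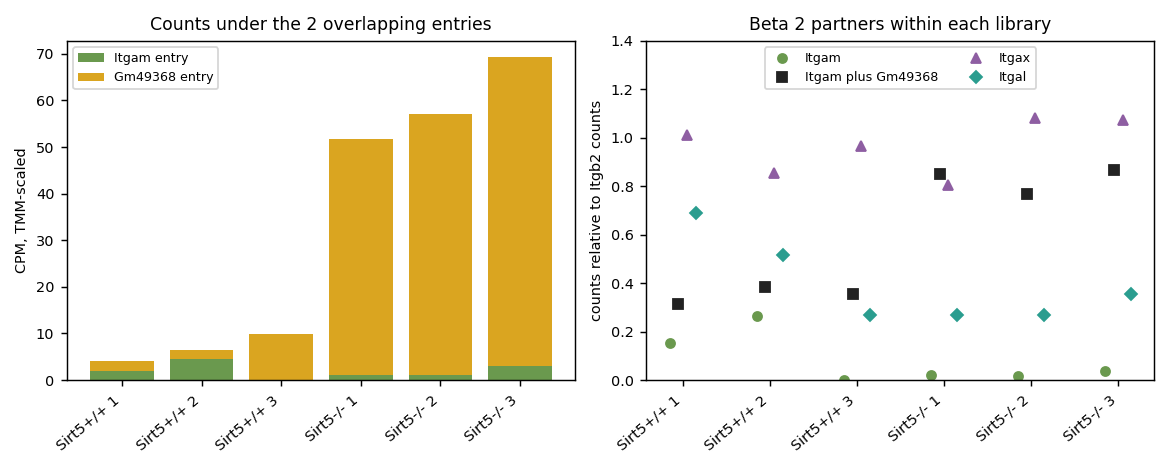
Left, TMM-scaled CPM counted under the Itgam entry (green) and the overlapping Gm49368 entry (ochre) in each library; right, counts of beta 2 partners relative to Itgb2 counts in the same library. The summed bars reach 51.8 to 69.3 CPM in Sirt5-/- against 4.13 to 9.83 CPM in Sirt5+/+, and the green part is small in all 3 Sirt5-/- libraries.

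Markers of several leukocytes were measured beside these genes. Macrophage and monocyte markers rose in 6 of 8 genes and 1 fell, against 17.4% and 17.1% of all genes. Their summed levels were 312 to 395 CPM in Sirt5+/+ and 1073 to 2112 CPM in Sirt5-/-, and all 8 were detected in every library. Counts of Itgb2 relative to that sum were 0.0354 to 0.0883 in Sirt5+/+ and 0.0379 to 0.0569 in Sirt5-/-, and those of Itgax 0.0358 to 0.0854 against 0.0406 to 0.0459, both overlapping. The summed Itgam locus gave 0.0111 to 0.0315 against 0.0325 to 0.0483, without overlap. Of 8 T and NK cell markers 7 were tested and 5 rose, with sums of 3.82 to 11.1 and 31.6 to 33.7 CPM and Ncr1 at 0 in some libraries. Relative to that sum, Itgal gave 0.659 to 2.27 in Sirt5+/+ and 0.484 to 0.876 in Sirt5-/-. Of 7 neutrophil markers 2 were tested and 1, Csf3r, rose, with sums of 3.23 to 6.03 and 8.11 to 13.1 CPM and Ly6g, Mpo and Elane at 0 in some libraries. Without Csf3r those sums overlapped, at 1.71 to 3.28 and 1.75 to 3.83 CPM. Dendritic cell markers rose in 1 of 6, with sums of 4.27 to 16.0 and 17.1 to 18.6 CPM, and B cell markers in 1 of 5, with sums of 4.65 to 5.78 and 9.50 to 11.8 CPM. Those shares, 16.7% and 20%, are close to the 17.4% of all genes that rose. The part of any of these leukocytes in the integrin result was not tested.

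Laminin chains rose in 5 of 10 genes, Lama4, Lama5, Lamb1, Lamb2 and Lamc1, and the other 5 did not pass. Lama5 encodes alpha 5, the chain of epithelial and mature vascular basement membranes (chromosome 2, 180176373 to 180225859, minus strand). It measured 5.98, 8.93 and 13.8 CPM in Sirt5+/+ and 50.6, 48.7 and 52.5 CPM in Sirt5-/-, a 5.35-fold difference (log2 change 2.42 ± 0.32, SE; edgeR adjusted p = 0.00206). Lama4, the alpha 4 chain of vessels and mesenchymal cells, rose 2.44-fold, from 3.46, 5.39 and 5.50 to 10.0, 12.5 and 12.2 CPM (edgeR adjusted p = 0.00875). The TPM of Lama4 were 1.09, 1.96 and 2.30 in Sirt5+/+ and 15.1, 17.1 and 14.3 in Sirt5-/-. The genotypes thus stood much further apart in TPM than in counts. Lama4 missed the threshold without Sirt5-/- replicate 2 (adjusted p = 0.0526), and Lama5 kept its call in all 17 alternatives.

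The other alpha chains overlapped between genotypes. Lama2, the alpha 2 chain of muscle and stroma, gave a log2 change of 0.056 (95% interval -0.68 to 0.79) and Lama1, the alpha 1 chain of embryonic basement membranes, gave -0.31 (95% interval -1.22 to 0.60). Lama3, the alpha chain of the hemidesmosomal laminin, gave 0.40 (95% interval -0.95 to 1.76), with 2.04, 4.07 and 9.70 CPM in Sirt5+/+ and 10.6, 6.26 and 3.56 CPM in Sirt5-/-. In Lama3 the highest Sirt5+/+ library and the highest Sirt5-/- library were the ones richest in mitochondrial reads. Endothelial markers fell in 3 of 7 genes, Stab2, Lyve1 and Tek, against 17.1% of all genes, and the other 4 did not pass. The 7 summed to 67.9 to 120 CPM in Sirt5+/+ and 58.2 to 67.1 CPM in Sirt5-/-. Without Stab2, a choice made after seeing the data, the sums overlapped, at 38.3 to 92.0 against 51.3 to 56.7 CPM. Counts of Lama4 relative to the sum of all 7 were 0.0359 to 0.0811 against 0.150 to 0.215, without overlap. With Stab2 left out that ratio was 0.0497 to 0.144 against 0.186 to 0.244, also without overlap.

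Of the beta chains, Lamb2, found in mature basement membranes, measured 10.5, 17.4 and 13.9 CPM in Sirt5+/+ and 58.4, 61.6 and 66.7 CPM in Sirt5-/-, a 4.47-fold difference (edgeR adjusted p = 0.00180). Lamb1, the more widespread beta 1 chain, rose 2.57-fold, from 6.52 ± 1.07 to 16.8 ± 2.88 CPM (SD, n = 3; edgeR adjusted p = 0.00496). Lamb3, partner of Lama3, went from 3.38 ± 0.821 to 6.02 ± 0.982 CPM (SD, n = 3) without overlap but did not pass (edgeR adjusted p = 0.0643; 0.0102 without Sirt5+/+ replicate 3). Lamc1, the gamma chain of most laminins, rose 3.23-fold, from 19.1, 18.4 and 13.1 to 57.1, 49.2 and 57.7 CPM (edgeR adjusted p = 0.00244). Lamc3, a minor gamma chain, gave a log2 change of -0.72 (95% interval -1.79 to 0.34) from 8 to 52 counts a library.

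The make-up of the laminin transcripts differed between genotypes within libraries. Per kilobase of deposited length, Lama5 made up 24.6, 27.2 and 33.6% of the summed alpha chain counts in Sirt5+/+ and 56.2, 55.5 and 61.2% in Sirt5-/-. On the TPM scale those shares of Lama5 were 37.2 to 43.4% and 55.2 to 65.5%, closer together but still without overlap. Lama2 and Lama1 took 15.4 ± 4.20% and 12.4 ± 8.22% per kilobase in Sirt5+/+ and 5.75 ± 1.28% and 3.38 ± 0.208% in Sirt5-/- (SD, n = 3). On the TPM scale the shares of Lama2 overlapped, at 15.4, 18.9 and 5.16% in Sirt5+/+ and 2.15, 2.60 and 12.4% in Sirt5-/-, with 7.90 TPM from 112 counts in Sirt5-/- replicate 3 against 1.53 TPM from 173 counts in replicate 2. Those of Lama1 were 1.78 to 23.4% and 0.560 to 1.62%. Lamb2 counts per Lamb1 count were 1.64, 2.28 and 2.52 in Sirt5+/+ and 4.15, 3.71 and 3.37 in Sirt5-/-. Lama5 counts per Lama4 count were 1.66 to 2.50 against 3.89 to 5.04. In TPM, Lama5 relative to Lama4 overlapped between genotypes. The TPM shares of Lama4 were 16.5, 26.2 and 40.9% in Sirt5+/+ and 38.3, 29.0 and 22.4% in Sirt5-/-. Those of Lama5 were 39.3, 37.2 and 43.4% and 55.2, 65.5 and 62.1%. Lama5 counts per Lamc1 count overlapped, at 0.313 to 1.05 against 0.886 to 0.989, with Sirt5+/+ replicate 3 highest.

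**Figure D4:**
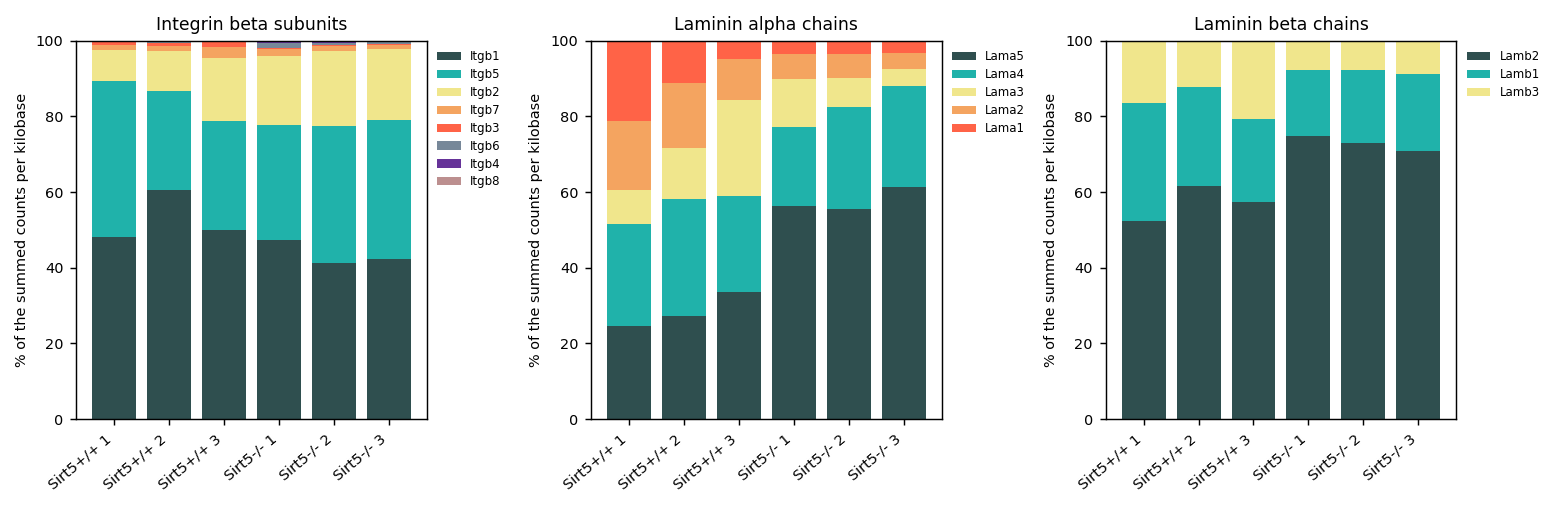
Share of each chain in the summed counts per kilobase of deposited length, by library, for integrin beta subunits, laminin alpha chains and laminin beta chains. Lama5 takes 55.5 to 61.2% of the alpha chain sum in Sirt5-/- against 24.6 to 33.6% in Sirt5+/+, and Lamb2 70.8 to 74.7% of the beta chain sum against 52.4 to 61.6%.

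Genes that work with integrins and laminins were listed apart from the 36. Of 51 such genes 50 were tested, 17 rose and 8 fell, with a median log2 change of 0.28, against 17.4% of all genes that rose and 17.1% that fell. The 8 that fell are a share of the 50 close to that of all genes. Of 8 basement membrane partners, 5 rose, Col4a1, Col4a2, Hspg2, Nid1 and Sparc, of which Hspg2 lost its call with library totals (edgeR adjusted p = 0.0658) and without Sirt5-/- replicate 2 or 3. Col4a1, a chain of the type IV collagen network, rose from 54.8 to 163 CPM on average (log2 change 1.57 ± 0.31, SE; edgeR adjusted p = 0.00600). Nid1, the nidogen that bridges laminin and type IV collagen, rose by 1.48 ± 0.28 (log2, SE; edgeR adjusted p = 0.00515), and Sparc, a collagen-binding matrix protein, by 1.73 ± 0.29 (edgeR adjusted p = 0.00381). Col18a1, which hepatocytes also make, was the one partner that fell, from 870, 563 and 276 to 124, 130 and 105 CPM (edgeR adjusted p = 0.00655), and missed the threshold with library totals (0.0585).

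Of 25 integrin adaptors and signalling genes, 8 rose and 1 fell, against 17.4% and 17.1% of all genes. Among those that rose, Tln1 lost its call in 1 alternative, Parvb in 3 and Src in 6. Fermt3, the kindlin of blood cells that switches on beta 2 and beta 3 integrins, rose from 7.69, 6.43 and 10.5 to 45.3, 53.6 and 66.7 CPM (log2 change 2.76 ± 0.29, SE; edgeR adjusted p = 0.00148). Parvg, the parvin of leukocytes, rose by 2.68 ± 0.42 (edgeR adjusted p = 0.00301), Lims1, the adaptor PINCH-1, by 1.63 ± 0.28 (0.00376) and Tns3, a tensin, by 1.47 ± 0.25 (log2, SE; 0.00367). The kindlin of other tissues, Fermt2, gave -0.37 ± 0.24 (SE; edgeR adjusted p = 0.263), a sign that turned with library totals (0.30). Lims2, the adaptor that fell (-1.06, edgeR adjusted p = 0.0262), lost its call with library totals (0.722), with upper-quartile factors and without Sirt5+/+ replicate 1 or Sirt5-/- replicate 2 or 3.

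Of 5 laminin receptors that are not integrins, Bcam rose and Sdc1 and Sdc4 fell. Bcam, a laminin alpha 5 receptor of epithelium and vessels, measured 22.9, 18.6 and 37.1 CPM in Sirt5+/+ and 168, 145 and 160 CPM in Sirt5-/- (log2 change 2.60 ± 0.33, SE; edgeR adjusted p = 0.00188). The levels of Bcam did not overlap between genotypes. Sdc1, a syndecan of hepatocytes, fell from 155, 93.1 and 41.1 to 21.1, 20.3 and 17.6 CPM (edgeR adjusted p = 0.00623). Sdc4 fell by 1.18 on the log2 scale (edgeR adjusted p = 0.0156), and this call was lost with library totals (0.624) and without Sirt5-/- replicate 2 or 3. Dag1, dystroglycan, gave -0.34 ± 0.49 (SE; edgeR adjusted p = 0.627).

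Of 13 integrin ligands 12 were tested, 3 rose and 4 fell, against 17.4% and 17.1% of all genes. Vcam1, the ligand of the alpha 4 integrins, rose from 9.77, 14.7 and 17.7 to 79.4, 74.6 and 78.6 CPM (log2 change 2.47 ± 0.28, SE; edgeR adjusted p = 0.00168). Icam1, the ligand of the beta 2 integrins, rose from 19.2, 16.3 and 25.5 to 81.4, 80.8 and 97.5 CPM (edgeR adjusted p = 0.00188), and 11.7% of its exon bases overlap an antisense gene. Tnc, tenascin C, rose by 1.69 ± 0.23 (log2, SE; edgeR adjusted p = 0.00206). The ligands that fell, Vtn, Fga, Fgb and Fgg, are plasma proteins of hepatocytes. Fgg fell from 2243, 2221 and 1210 to 558, 558 and 446 CPM (log2 change -1.86 ± 0.41, SE; edgeR adjusted p = 0.0101). With library totals each of these 4 lost its call (adjusted p from 0.0635 for Fga to 0.501 for Fgb), and each did so without Sirt5-/- replicate 2 or 3. Fgb and Vtn lost it on leaving out other libraries too. Madcam1, the gut ligand of alpha 4 beta 7, was too low to be tested, with at most 10 counts in a library.

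**Figure D5:**
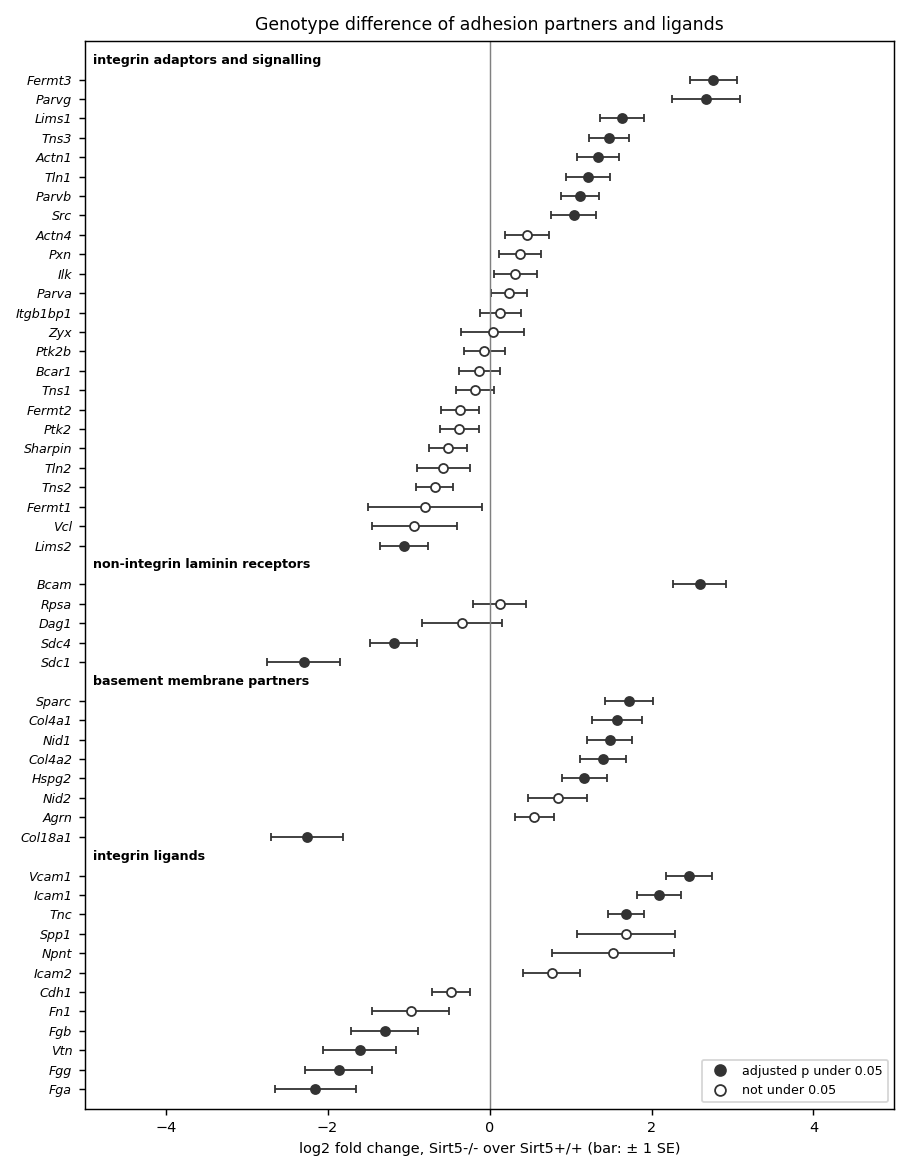
Log2 fold change of 50 adhesion partners, Sirt5-/- over Sirt5+/+, with 1 SE, grouped by role; filled points passed an adjusted p of 0.05 in edgeR. Fermt3, Bcam and Vcam1 lead their groups at 2.76, 2.60 and 2.47, and the plasma ligands Fga, Fgg, Vtn and Fgb lie below 0.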

How the data were processed

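RNA of 6 mouse livers was sequenced. The deposited table holds expected counts, which need not be whole and carry no scaling, and TPM, both made by the authors, and the log2 fold changes, p-values and adjusted p-values of the authors' comparison. HISAT2 2.1.0, RSEM 1.3.1 and DESeq2 1.24.0 are named, without roles, per the submitters' processing notes, and the genome build is not given in the sources used here. All 55536 gene IDs and names equal those of GENCODE M21, so its GRCm38 coordinates are used. The deposited gene lengths, as named in the authors' table, served for values per kilobase, and how they were chosen is not given in the sources used here.

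Expected counts were rounded, filtered with filterByExpr (minimum count 10, minimum total 15), scaled with TMM and tested by quasi-likelihood in edgeR 4.0.16, two-sided, genotype as the only term, with Benjamini-Hochberg adjustment over 14799 genes. Each SE was derived from the log2 fold change and its F value. All 36 genes are accounted for; of the listed partners, those with the smallest p in each list and partners of a described gene are named. The members and lists were chosen with earlier results of these data known. Shared sequence was measured as 31-base words of GENCODE M21 transcripts found in other genes. The steps were tested on simulated data. Alternatives used DESeq2 1.42.0 and limma-voom (limma 3.58.1) as other tools, other scalings and filters, the replicate number as a block, and leaving out libraries. The sum of Itgam and Gm49368 was added after seeing the data. The values of 1 marker gene are not reported here.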

Additional observations from a re-analysis of the deposited data

How the results depend on the processing

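Of the 21 called genes, 12 kept their call in every alternative that tested them, 9 lost it in at least 1, and 0 turned direction, among 17 alternatives. Under the stricter filter Itga2, Itgb3 and Itgae of these were too low to be tested. The higher count of 19 ranged from 12 (without Sirt5-/- replicate 2) to 23 (without Sirt5+/+ replicate 3) when 1 library was left out. The lower count of 2 was 0 in edgeR with library totals, upper-quartile factors and no filter, 1 with the stricter filter, which did not test Itgb3, and 1 without the libraries richest in mitochondrial reads, and 0 to 2 with 1 library left out. At an unadjusted p under 0.05, these 3 settings with 0 gave 0, 2 and 3 lower genes, and DESeq2 and limma-voom each called 2. With the replicate block, 15 genes were higher and 0 lower (2 lower at an unadjusted p under 0.05). Itga5, Itga7, Itga10, Itgb1, Itgb3 and Itgae lost their call there. Deviations of same-numbered livers from their group means correlated at -0.219, 0.172 and -0.232, and not every library correlated best with its own number. The highest correlation, 0.313, joined Sirt5+/+ replicate 3 and Sirt5-/- replicate 1, the libraries richest in mitochondrial reads. With 3 livers per group such correlations cannot decide whether the numbers pair the samples, and the labels do not say. Among partners the lower count of 8 was 1 with library totals, 13 without the libraries richest in mitochondrial reads, and 2 (without Sirt5-/- replicate 2) to 12 (without Sirt5+/+ replicate 3) with 1 library left out. The genes that turned sign had missed the threshold. Itgam gave 0.093 with library totals, 0.19 with limma-voom, 3.15 summed with Gm49368 and -0.95 to 0.65 with 1 library left out. Lama1 gave 0.20 with library totals, and Lama2 -0.029 with limma-voom and -0.074 without the libraries richest in mitochondrial reads. With 1 library left out, Lama1 ranged from -0.51 to 0.059, Lama2 from -0.070 to 0.26, Lama3 from -0.073 to 1.18, Itga1 from -0.082 to 0.28 and Itga8 from -0.23 to 0.23. The causes were not tested. Low counts limit Itga2, Itgb6, Itgb8, Itgae and Itga10.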
